A study of Triticum aestivum with 6 samples.

Results

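The region described here is a 20 Mb stretch of wheat chromosome 2B, and its members are the genes whose start in the deposited gene table lies on 2B from 680 Mb to below 700 Mb. The rule found 229 genes, of 6109 on chromosome 2B and 107891 in the whole table. The stretch was chosen by measured values, namely the share of its genes called higher in purple than in white grain. The values that set purple against white grain below therefore describe what it was chosen for, and no test of them is given. The libraries came from grain of a purple-grained bread wheat (Triticum aestivum; 3 libraries) and of a white-grained bread wheat (3 libraries), both taken 30 days after flowering from plants in pots in a climate chamber. The labels name neither the cultivars nor any allele, and give no treatment, so grain colour cannot be told apart from any other genetic difference between these wheats. The question the groups address is which transcripts differ between coloured and uncoloured grain. Coordinates are those of the table; its genome build is not given in the sources used here.

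Bread wheat is hexaploid and carries A, B and D subgenomes, so that most genes of chromosome 2B have counterparts in the same order on 2A and 2D. Such counterparts are similar enough to share sequencing reads, and the value of any single copy is uncertain for that reason. Genes of the cold-regulated families of wheat and barley, first found through their induction at low temperature, encode small proteins and often stand in tandem. Disease resistance genes of the nucleotide-binding, leucine-rich-repeat (NLR) kind encode intracellular immune receptors, occur in clusters, and differ in number and sequence between cultivars. Polyphenol oxidases oxidise phenolic compounds to quinones and are known in wheat grain for the browning of dough. Non-specific lipid transfer proteins are small secreted proteins that bind lipids.

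Library totals ran from 80898310 to 102868886 counts in purple grain and from 78660932 to 88002127 in white grain. Purple replicate 3 was unlike its fellow replicates. Over the tested genes, r of log2 FPKM was 0.885 and 0.892 between it and purple replicates 1 and 2, against 0.945 between those replicates and 0.836 to 0.864 between it and the white libraries. The tissue label says grain while the extraction text names stems and buds. Of the 108 gliadin and glutenin genes, which mark the starchy endosperm, 103 had a count, and they held 8.23% to 21.3% of summed FPKM in purple grain and 10.5% to 19.4% in white grain. FPKM is the authors' expression level, scaled for gene length and library size. The 74 green tissue markers held 0.00370% to 0.0262% in purple grain and 0.0307% to 0.0364% in white grain, with 7 at 0 in every library. The 68 anther and pollen markers held 0.00558% to 0.00813% in purple grain and 0.00315% to 0.00502% in white grain, with 48 at 0. The part of green tissue and pollen in the results below was not tested. In bulk grain, fewer cells of a type and less RNA per cell cannot be told apart.

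Of the 229 genes, 151 had at least 1 count in some library and 78 were listed at 0 in all 6 libraries, which is 34.1% of the region against 25.7% of the whole table. A gene was tested if it averaged 0.5 FPKM or more over the libraries. This was reached by 81 genes, and 70 were counted but stayed below it. In purple grain 129, 126 and 127 genes of the region had a count, against 108, 108 and 106 in white grain. Every purple library thus detected more of these genes than any white library, as it did over the whole table, with 67647, 67396 and 68885 genes counted in purple grain and 65102, 66222 and 65058 in white grain.

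Over the whole table, a gene was called where edgeR's quasi-likelihood test gave an adjusted p (Benjamini-Hochberg) under 0.05 with a change of 1 or more on the log2 scale. In the region 15 genes were called higher in purple grain, 18.5% of the 81 tested, where the share over all 48492 tested genes was 2.87%. Only 1 gene was called lower, 1.23% of those tested, where the share over all tested genes was 2.32%. DESeq2 called 23 higher (9.41% of all tested genes) and 6 lower (6.2%). Since the stretch was chosen for this contrast, nothing is read from either count. Of the 15 higher genes, 10 reached the 0.5 FPKM mean although their white mean was below it, so they passed the filter through purple grain alone. The median log2 difference (purple over white) was 0.22 over the 81 genes and 0.02 over all tested genes. All 3 purple libraries lay above all 3 white ones for 27 tested genes of the region (33.3%, against 13.3% of all tested genes) and below them for 16 (19.8%, against 19.9%), while the libraries overlapped for 38. The count of higher genes changed with the libraries used. It was 4 without purple replicate 2, 6 without white replicate 2, 6 without white replicate 3 and 9 without purple replicate 1, with 0.474%, 0.817%, 0.862% and 1.49% of all tested genes called higher in those fits. Without purple replicate 3 it was 15, with 5.22% of all tested genes called higher.

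The higher genes were not spread evenly along the stretch. Of the 15, 13 started within the first 8 Mb, where 32 genes were tested (40.6%), and 6 of these lay among the 13 tested genes of the first 1 Mb. In steps of 2 Mb, 6 of 15 tested genes were called higher from 680 to 682 Mb, 4 of 11 from 682 to 684 Mb and 3 of 6 from 686 to 688 Mb. No gene was tested from 684 to 686 Mb, where the table lists 6 genes. In the remaining 12 Mb, 2 of 49 tested genes were called higher (4.08%) and 1 lower (2.04%). The 20 Mb before the region had 3 of 79 tested genes called higher (3.8%) and the 20 Mb after it 2 of 61 (3.28%). The flank before the region was not uniform. From 672 to 674 Mb, 2 of 12 tested genes were called higher, and the median log2 difference was 2.98. It was 3.47 from 680 to 682 Mb. The step from 672 to 674 Mb was named after its values were seen. The split at 8 Mb was chosen after the values were seen.

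**Figure D1:**
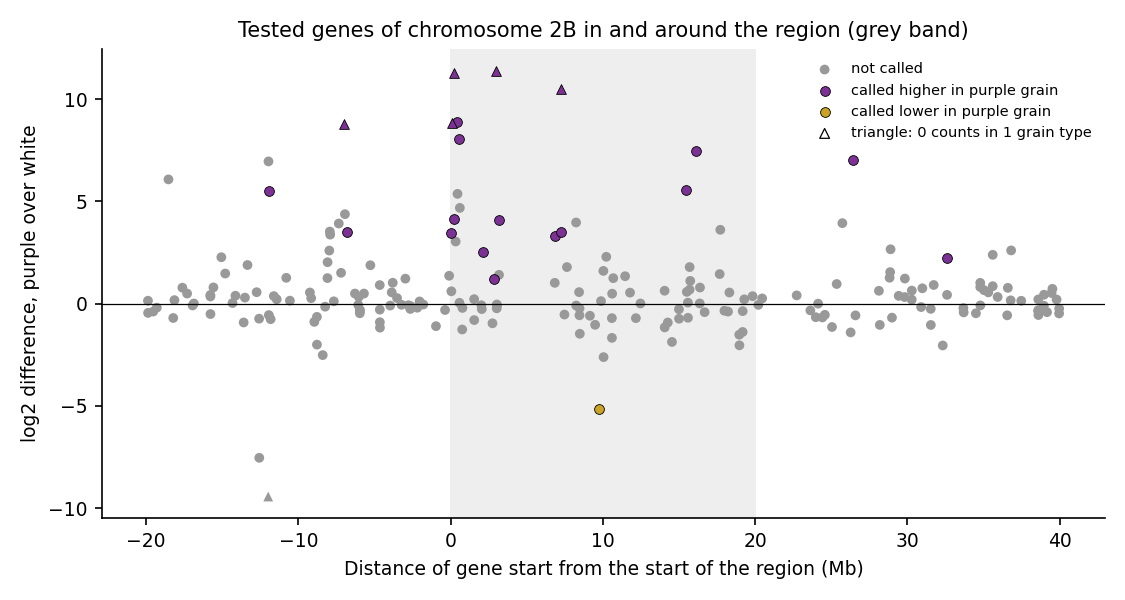
Fitted log2 difference (purple over white grain) of each tested gene of chromosome 2B against the distance of its start from the start of the region, with the region shaded. Purple symbols (called higher) gather in the first 8 Mb, which hold 13 of the 15, the yellow symbol is the lower gene, and triangles are genes with 0 counts in one grain type, whose fitted size depends on the model and is no measured fold.

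The tested genes nearest the edges of the region were not called. The last tested gene before the region, TraesCS2B02G481700, is described as GPI mannosyltransferase 2, an enzyme that builds the glycolipid anchor of surface proteins; its log2 difference was 1.36 ± 0.51 (SE), and it was not called. The first tested gene inside, TraesCS2B02G482000, annotated with UDP-arabinose epimerase activity, had 0.60 ± 0.40. The last tested gene inside, TraesCS2B02G505500, had 0.36 ± 0.29, and the first beyond, TraesCS2B02G505600 (importin subunit beta-1, a nuclear import receptor), had -0.06 ± 0.18.

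A few genes held most of the region's RNA in purple grain. The FPKM of all members summed to 2028, 1942 and 1553 in the purple libraries and to 695.1, 651.6 and 577.1 in the white ones. The 15 higher genes made up 68.6%, 62.6% and 51.0% of that sum in purple grain, against 8.37%, 13.5% and 9.64% in white grain. Without them the sums were 636.8, 725.6 and 761.1 in purple grain and 636.9, 563.5 and 521.5 in white grain, and the ranges of the grain types touch at their ends. The 15 genes were called for being higher in purple grain. Their larger share there, and the closer sums without them, follow in part from that choice. TraesCS2B02G482100 and TraesCS2B02G483100 alone held 59.6%, 56.3% and 39.7% of the region's sum in purple grain and 7.15%, 11.97% and 8.44% in white grain.

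**Figure D2:**
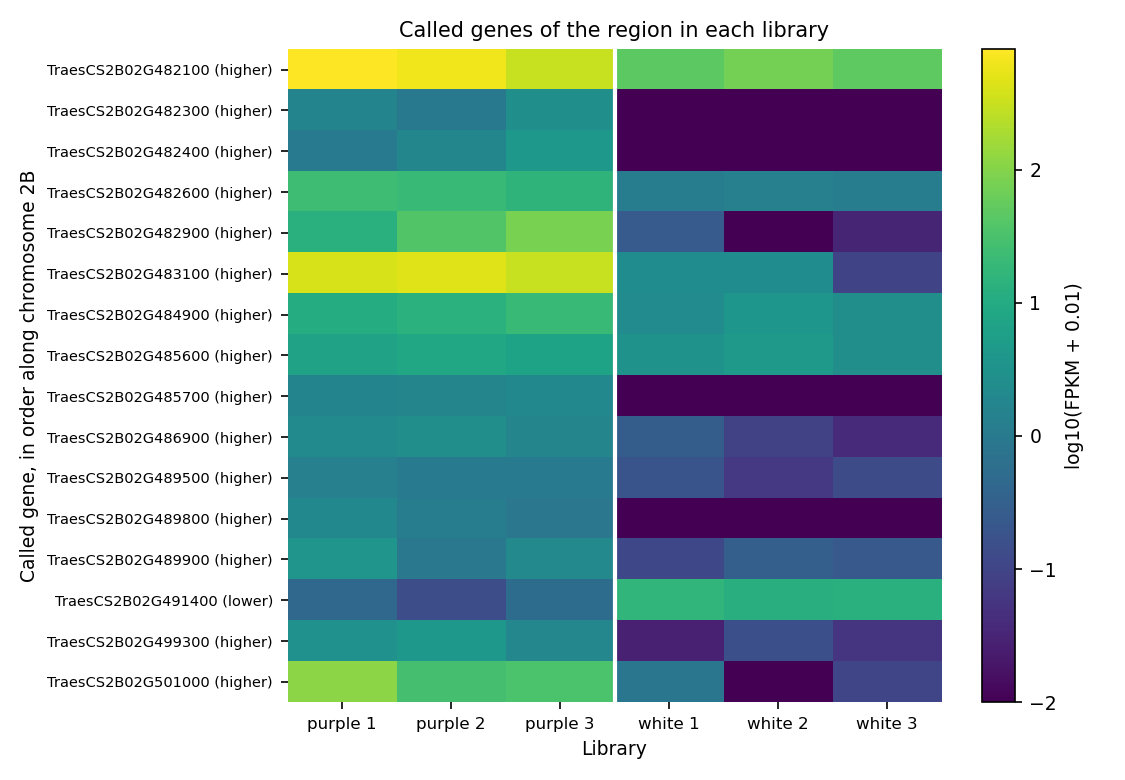
Expression of the 16 called genes in each library as log10(FPKM + 0.01), purple libraries left of the white line and white libraries right of it, genes in order along the chromosome. Yellow is high and dark blue is 0; the 4 rows with dark cells in all white libraries are the genes counted in purple grain alone, and TraesCS2B02G491400 is the gene with its high values in white grain.

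The first 0.55 Mb after the first called gene held a run of genes that includes cold-regulated ones. TraesCS2B02G482100 (680046536 to 680046847) has no description in the table, and it was the most abundant gene of the region. It had 800, 641 and 306 FPKM in purple grain, against 47.3, 75.6 and 48.6 FPKM in white grain. Every purple library was above every white one, purple replicate 3 being the lowest of the purple libraries, and the log2 difference was 3.47 ± 0.41. TraesCS2B02G482300, which follows it, is described as cold-regulated protein 2. It had 1.62, 0.932 and 2.70 FPKM in purple grain and 0 in the white libraries, which is at least 18.2-fold higher when white grain is set to 3 counts per library. TraesCS2B02G482400, described as a B3 domain protein, a plant-specific type of DNA-binding protein, had 1.05, 1.78 and 4.08 FPKM in purple grain and 0 in white grain. That is at least 100.2-fold higher, again with 3 counts per white library. These lower bounds cover counting error only.

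Between the B3 domain gene and a gene that keeps its place on all 3 subgenomes, a block of 8 genes contains the other genes described as cold-regulated. TraesCS2B02G482900, described as pTACR7, a wheat cold-regulated transcript, had 13.0, 38.0 and 83.4 FPKM in purple grain, against 0.243, 0 and 0.0220 FPKM in white grain. Its purple libraries differed widely among themselves and all lay above the white ones, with a log2 difference of 8.89 ± 1.24. TraesCS2B02G483000, described as BLT14.1, a barley protein of a low-temperature-responsive family, had 54.0, 290 and 171 FPKM in purple grain, against 10.1, 1.84 and 0.924 FPKM in white grain. The libraries again did not overlap, but the spread was wide (log2 difference 5.37 ± 1.21), and edgeR did not call this gene while DESeq2 did. TraesCS2B02G483100, without a description, had 410, 452 and 310 FPKM in purple grain, against 2.38, 2.38 and 0.0909 FPKM in white grain, a log2 difference of 8.03 ± 1.18. TraesCS2B02G482600, described as a barley predicted protein, had 23.6, 20.2 and 15.4 FPKM in purple grain, against 1.17, 1.35 and 1.13 FPKM in white grain, a log2 difference of 4.12 ± 0.26.

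The block as a whole summed to 503, 803 and 584 FPKM in purple grain and to 14.4, 6.24 and 3.18 FPKM in white grain, with 3 of its 5 tested genes called higher. The matching block of chromosome 2A, between the counterparts of the same flanking genes, holds 8 genes and summed to 2252, 2039 and 738 FPKM in purple grain, against 46.4, 157 and 35.5 FPKM in white grain. There 5 of 6 tested genes were called higher, where the share over all tested genes was 2.87%. The matching block of 2D holds 5 genes and summed to 117, 230 and 180 FPKM in purple grain, against 6.09, 4.36 and 5.06 FPKM in white grain, with 2 of 3 tested genes called higher. On each of the 3 chromosomes every purple library was thus above every white library. The most abundant 2A gene, TraesCS2A02G461300, has no description either. It had 2100, 1685 and 604 FPKM in purple grain, against 42.5, 153 and 34.3 FPKM in white grain (log2 difference 4.44 ± 0.76). Its call was kept in 2 of 6 fits with a library left out, as were those of TraesCS2A02G460800 and TraesCS2A02G461500. The calls of TraesCS2A02G461100 and TraesCS2A02G461200 were kept in 5 and 6 such fits. The 2D gene TraesCS2D02G461400 had 82.2, 190 and 136 FPKM in purple grain and 4.21, 2.36 and 3.65 FPKM in white grain (log2 difference 5.39 ± 0.49). The blocks were chosen after the values were seen. The 16 oleosin and late-embryogenesis-abundant genes, which mark embryo and aleurone, were also higher in purple grain. They held 0.225%, 0.262% and 0.0793% of summed FPKM in purple grain and 0.0677%, 0.0677% and 0.0478% in white grain, with 2 of them at 0 in every library. Among the purple libraries replicate 3 had the lowest marker share. It also had the lowest block sum on 2A, but replicate 1 had the lowest on 2B and 2D. The part of embryo and aleurone in the result was not tested.

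**Figure D3:**
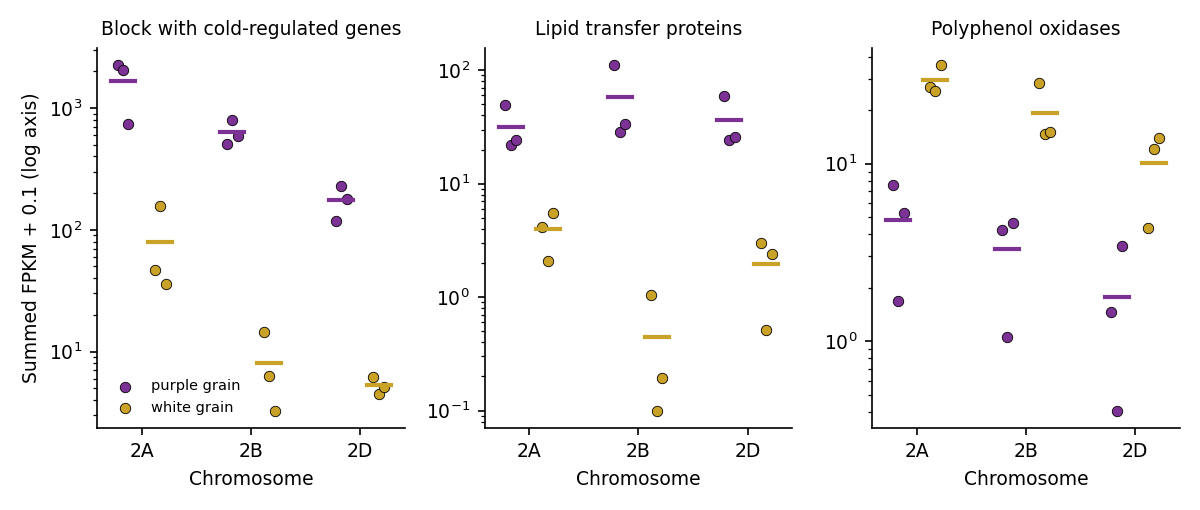
Summed FPKM (plus 0.1, log axis) of 3 gene blocks on chromosomes 2A, 2B and 2D in each purple library (left of each pair) and white library (right), with a bar at the mean of 3 libraries. The purple points lie above the white ones on all 3 chromosomes for the block with cold-regulated genes and for the lipid transfer proteins. They lie below them for the polyphenol oxidases.

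Next to this block stands TraesCS2B02G483300, described as transcription factor PIF3, in Arabidopsis a bHLH factor that binds phytochrome. It had 8.98, 9.57 and 11.7 FPKM in purple grain, against 0.973, 0.223 and 0 FPKM in white grain, a log2 difference of 4.68 ± 1.33 that edgeR did not call. Its collinear 2A copy, TraesCS2A02G461700, had 36.4, 27.9 and 43.2 FPKM in purple grain, against 4.39, 0.344 and 0 FPKM in white grain. Its collinear 2D copy, TraesCS2D02G461700, had 28.4, 26.7 and 24.8 FPKM in purple grain, against 0.631, 0 and 0 FPKM in white grain. None of these 3 genes was called, and in each the purple libraries were close together while white replicate 1 was the highest white library. They were named after their values were seen.

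From 682 to 684 Mb 4 more genes were called higher. TraesCS2B02G484900, with no informative description, had 10.9, 13.7 and 20.6 FPKM in purple grain, against 2.32, 3.72 and 2.61 FPKM in white grain (log2 difference 2.51 ± 0.31). TraesCS2B02G485600 is described as ABCC1; transporters of this class move conjugated compounds across membranes, often into the vacuole. It had 6.70, 8.69 and 6.95 FPKM in purple grain, against 3.34, 4.50 and 2.64 FPKM in white grain, and its log2 difference of 1.22 ± 0.23 was the smallest of the higher calls. The call was lost when any library other than purple replicate 3 was left out. TraesCS2B02G485700, annotated with DNA binding, had 1.63, 1.70 and 1.94 FPKM in purple grain and no count in white grain. Its purple values were close together, and it was at least 108.7-fold higher with 3 counts per white library. TraesCS2B02G486900, annotated as a tRNA guanine-N7 methyltransferase, had 2.12, 2.63 and 1.66 FPKM in purple grain, against 0.273, 0.0828 and 0.0283 FPKM in white grain (log2 difference 4.08 ± 0.85).

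Counterparts of these genes were matched with uninformative descriptions included, a step added after the data were seen. The 2D counterparts of TraesCS2B02G484900 and TraesCS2B02G485700 were both called higher. TraesCS2D02G463900 had 2.23, 2.60 and 5.92 FPKM in purple grain, against 0.551, 0.622 and 0.844 FPKM in white grain. TraesCS2D02G464900 had 1.05, 1.10 and 2.20 FPKM in purple grain, against 0, 0.0281 and 0 FPKM in white grain. The call of TraesCS2D02G463900 was lost whichever library was left out, and that of TraesCS2D02G464900 was kept in 2 of 6 such fits. On 2A the counterpart of TraesCS2B02G484900 was not called (log2 difference 1.91), nor was that of TraesCS2B02G486900 (0.80).

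With starts from 683042399 to 686809725, the region carries a cluster of NLR-type genes that stayed below the filter, so that none entered the main test. In the whole region 19 genes are described as disease resistance proteins, mostly RGA2 and RGA4. Of these, 15 had a count and 4 were at 0 in every library. Their counts summed to 476, 637 and 515 in the purple libraries and to 16, 68 and 18 in the white ones. Of the 15 counted genes, 9 had counts in purple grain alone, and 6 of those in all 3 purple libraries. Over the table, 8.83% of counted genes had counts in purple grain alone, and 1.94% had them in all 3 purple libraries and no white one. The highest mean of a disease resistance gene over the libraries was 0.127 FPKM, which kept all of them below the filter. With no filter edgeR called 3 of the 15 counted genes higher in purple grain, where 2.29% of all genes tested that way were called higher: TraesCS2B02G486300, TraesCS2B02G487700 and TraesCS2B02G488400.

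The cluster itself is the 14 disease resistance genes between a gar2-like gene and a wall-associated kinase gene, with other genes among them. These 14 had 432, 422 and 382 counts in purple grain, against 16, 25 and 10 counts in white grain. TraesCS2B02G488400 (RGA4) had 143, 123 and 53 counts in purple grain and 0 in each white library, which is at least 32.7-fold higher with 3 counts per white library. TraesCS2B02G486300 (RGA2) had 44, 100 and 51 counts in purple grain and 0 in white grain, at least 20.8-fold higher. TraesCS2B02G488000 (RGA4) had 99, 31 and 22 counts in purple grain and 0 in white grain. On this chromosome the lowest purple sum, 382 counts, was far above the highest white sum, 25, and as CPM (counts scaled to library size with TMM factors) the sums were 4.25, 4.59 and 4.99 in purple grain and 0.214, 0.258 and 0.113 in white grain.

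The matching cluster of 2A, with 12 genes, summed to 188, 257 and 163 counts in purple grain and 142, 55 and 17 in white grain. As CPM the 2A sums were 1.85, 2.80 and 2.13 in purple grain and 1.90, 0.568 and 0.193 in white grain, so that the grain types overlapped. On 2D, 7 genes had 275, 244 and 176 counts in purple grain and 10, 209 and 249 counts in white grain, and they overlapped there too. TraesCS2D02G466400 (RGA4) had 74, 65 and 42 counts in purple grain and 0, 135 and 145 counts in white grain. On 2A, TraesCS2A02G465600 had 30, 36 and 14 counts in purple grain and 67, 6 and 0 in white grain. Other genes of both clusters were at or near 0 in white grain, like those of 2B. TraesCS2A02G464900 had 20, 56 and 27 counts in purple grain and 0 in white grain. TraesCS2D02G465300 had 53, 55 and 59 counts in purple grain and 0, 4 and 0 in white grain. The difference between the chromosomes was not tested. The cluster and these single genes were picked out after their values were seen.

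**Figure D4:**
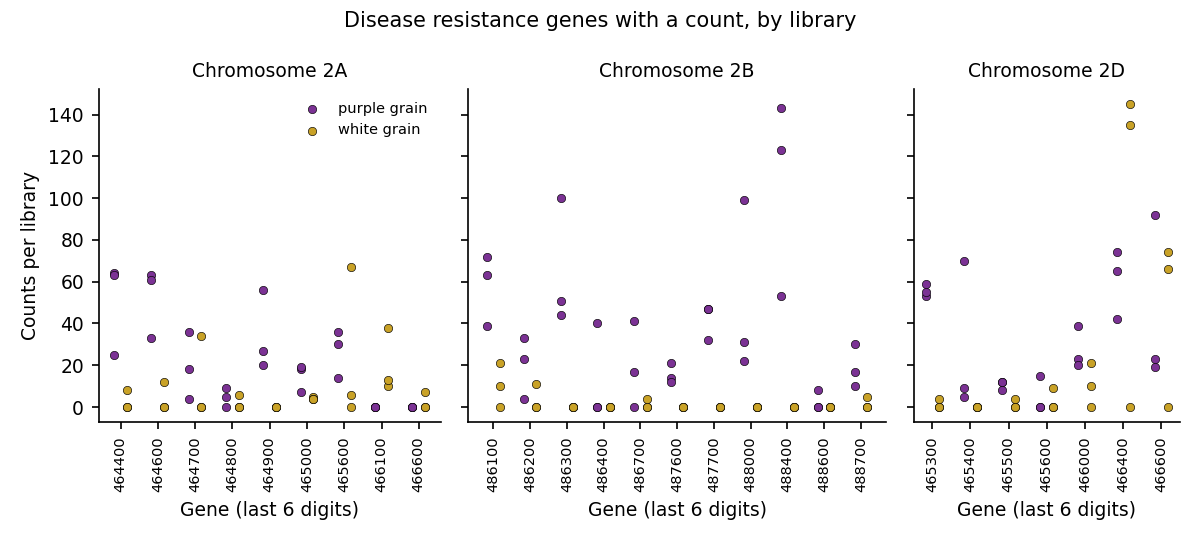
Counts per library of each counted disease resistance gene in the matching clusters of 2A (9 genes), 2B (11 genes) and 2D (7 genes), purple grain left and white grain right at each gene, which is labelled with the end of its identifier. On 2B the white points lie at or near 0, no higher than 21. On 2D they reach 145 in TraesCS2D02G466400 and are no higher than 4 in TraesCS2D02G465300.

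Over the region 23 genes had counts in purple grain alone and 10 in white grain alone, 15.2% and 6.62% of the 151 counted genes, where the shares over the table were 8.83% and 6.14%. Counts in all 3 purple libraries and in no white one were found for 12 genes (7.95%, against 1.94% of counted genes of the table), and 10 of the 12 lay in the first 8 Mb. These 12 comprise the 6 disease resistance genes, the 4 called genes without white counts, a wall-associated receptor kinase (TraesCS2B02G489700) and a lipid transfer protein (TraesCS2B02G500900). The reverse pattern, counts in all 3 white libraries alone, occurred in 1 gene (0.662%, against 1.01%). That gene, TraesCS2B02G493400, reached 0.0678 FPKM at most.

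With starts from 686817703 to 687248060, 3 genes close to each other were called higher. TraesCS2B02G489500, annotated with DNA binding, had 1.34, 1.06 and 1.03 FPKM in purple grain, against 0.177, 0.0564 and 0.121 FPKM in white grain (log2 difference 3.31 ± 0.58). TraesCS2B02G489800, annotated as a cell wall peroxidase, an enzyme class that oxidises phenolic substrates with hydrogen peroxide, had 1.94, 1.15 and 0.859 FPKM in purple grain and no count in white grain. It was at least 59.0-fold higher with 3 counts per white library. TraesCS2B02G489900 is described as FD-like 15; FD is the bZIP factor that partners the florigen FT in Arabidopsis. It had 3.65, 0.897 and 1.98 FPKM in purple grain, against 0.106, 0.290 and 0.228 FPKM in white grain, a log2 difference of 3.48 ± 0.68. That call too was lost without any library other than purple replicate 3. The FD-like copies were not called, with log2 differences of 0.33 on 2A (TraesCS2A02G467100) and 1.75 on 2D (TraesCS2D02G467100). The 2A copy had 3.35, 1.58 and 1.29 FPKM in purple grain and 2.18, 1.47 and 1.52 FPKM in white grain, so that its libraries overlapped.

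The lower gene of the region was TraesCS2B02G491400 (start 689764554), a polyphenol oxidase. It had 0.445, 0.133 and 0.541 FPKM in purple grain, against 16.7, 12.6 and 12.9 FPKM in white grain. The white libraries were close together, and the low purple values spread more in proportion. The grain types lay far apart, with a log2 difference of -5.14 ± 0.57, and the call was kept without each library in turn. Its collinear copy on 2A, TraesCS2A02G468500, was called lower as well, with 0.720, 0.250 and 0.293 FPKM in purple grain and 13.3, 12.2 and 11.4 FPKM in white grain (log2 difference -4.77 ± 0.47). The 2D copy, TraesCS2D02G468600, had 0.0863, 0.0375 and 0.270 FPKM in purple grain and 2.22, 6.34 and 5.96 FPKM in white grain (log2 difference -5.03 ± 0.82); it was called lower too, and that call was kept in 2 of 6 fits with a library left out.

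A pair of neighbouring polyphenol oxidase genes of the region did not do the same. TraesCS2B02G491000 had 0.559, 0.225 and 1.32 FPKM in purple grain, against 4.37, 1.18 and 0.481 FPKM in white grain. TraesCS2B02G491100 had 3.10, 0.593 and 2.65 FPKM in purple grain, against 7.11, 0.876 and 1.60 FPKM in white grain. In both the libraries overlapped, and neither was called. Summed over the described polyphenol oxidases of each stretch, purple grain had 4.10, 0.950 and 4.52 FPKM on 2B, against 28.2, 14.6 and 15.0 FPKM in white grain, with the purple libraries below the white ones on 2A and 2D as well.

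In the last 6 Mb 2 genes were called higher. TraesCS2B02G501000 (start 696080847), a type 1 non-specific lipid transfer protein, had 111, 28.1 and 33.0 FPKM in purple grain, against 0.847, 0 and 0.0944 FPKM in white grain. Purple replicate 1 was the highest, and every purple library stood well above the white ones, with a log2 difference of 7.46 ± 1.35. The call was kept in 2 of 6 fits with a library left out. The lipid transfer genes of the matching place behaved alike in direction. On 2A, TraesCS2A02G477700 had 49.0, 21.8 and 24.01 FPKM in purple grain, against 3.18, 2.003 and 4.39 FPKM in white grain (log2 difference 3.36 ± 0.48, called higher). On 2D, TraesCS2D02G476900 had 58.6, 23.9 and 25.8 FPKM in purple grain, against 2.88, 0.409 and 2.28 FPKM in white grain (log2 difference 4.30 ± 0.82, called higher). In each of these genes purple replicate 1 was the highest library. The other 3 lipid transfer genes of the region had between 1 and 23 counts in all.

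The other higher gene there, TraesCS2B02G499300 (start 695449352), has no informative description. It had 3.04, 4.04 and 1.87 FPKM in purple grain, against 0.0188, 0.146 and 0.0441 FPKM in white grain, a log2 difference of 5.55 ± 0.74.

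Among the uncalled genes were some of the most abundant of the region. TraesCS2B02G491200, autophagy-related protein 8a, which coats the membrane of autophagosomes, had 42.1, 31.9 and 44.3 FPKM in purple grain, against 112, 83.3 and 62.6 FPKM in white grain. Its libraries did not overlap, with a log2 difference of -1.04 ± 0.31, and DESeq2 called it lower where edgeR did not. TraesCS2B02G486800, without a description, had 66.1, 50.5 and 129 FPKM in purple grain, against 33.4, 28.3 and 37.4 FPKM in white grain (log2 difference 1.41 ± 0.41). TraesCS2B02G489600, nucleoredoxin, a thioredoxin-like protein of redox control, had 93.5, 55.7 and 60.4 FPKM in purple grain, against 61.3, 5.68 and 37.3 FPKM in white grain, and overlapped. TraesCS2B02G491700, a starch synthase IIIb precursor, had 6.77, 10.2 and 4.12 FPKM in purple grain, against 4.22, 1.65 and 1.36 FPKM in white grain, and overlapped as well. Apart from the autophagy gene, which the naming rule includes, these were picked after their values were seen.

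Other well expressed genes lay close to 0 on the log2 scale. TraesCS2B02G495700 had a log2 difference of 0.01 ± 0.19, with 21.7, 21.6 and 24.4 FPKM in purple grain and 23.5, 26.1 and 23.0 FPKM in white grain. TraesCS2B02G499600, annotated as a proteasome base subunit, had 0.05 ± 0.20, and TraesCS2B02G486000, described as gar2, a nucleolar protein of ribosome assembly in fission yeast, had -0.08 ± 0.24. The last of these borders the disease resistance cluster.

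By described function, 6 of the 15 higher genes had an informative description. Of the 116 genes without an informative description, 47 were tested and 9 called higher. Descriptions alone set the classes, so these 9 include TraesCS2B02G489800 and TraesCS2B02G486900, annotated as a peroxidase and a methyltransferase. Among 8 transcription factor and chromatin genes, 5 were tested and 2 called higher, the B3 domain gene and the FD-like gene. Among 3 chaperone and stress genes, which here are the named cold-regulated ones, 3 were tested and 2 called higher; cold-regulated descriptions were put in this class after they were seen. The transporter class takes in the lipid transfer proteins. Of its 5 genes 2 were tested, ABCC1 and a lipid transfer protein, and both were called higher. By description, no member was called higher among 7 P450, oxygenase and reductase genes (5 tested, 1 called lower). The same held for 6 ribosomal and translation genes (3 tested), 6 transferases (1 tested) and 12 genes with other descriptions (8 tested). The share called higher was 2.87% over all tested genes, and nothing is read from class counts this small. At 0 in all 6 libraries were 11 of 15 F-box and ubiquitin ligase genes and 13 of 19 hydrolases, proteases and inhibitors. So were 4 of 19 disease resistance genes and 39 of 116 genes without an informative description. The share at 0 over the whole table was 25.7%.

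The counterparts over the whole stretch were sought as genes in the same order with an identical, informative description. The matching stretch of 2A ran from 706763420 to 719526373 and that of 2D from 566986850 to 586281175. Of the 112 members with an informative description, 61 had such a copy on 2A and 57 on 2D. Of these copies 22 were tested on 2A and 18 on 2D, 0 were called higher on either chromosome, and 1 on each was called lower, the polyphenol oxidase. Over all tested genes 2.87% were called higher and 2.32% lower. With DESeq2, 2 copies on 2A and 2 on 2D were called higher, where 9.41% of all tested genes were. This comparison touches few of the genes described above, since only 3 of the 15 higher genes had a copy by that definition on either chromosome.

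A count of all genes between the outermost copies includes the unmatched ones. On 2A it held 78 tested genes, of which 7 were called higher (8.97%) and 4 lower (5.13%). On 2D it held 68, of which 7 were called higher (10.3%) and 1 lower (1.47%). The shares over all tested genes were 2.87% higher and 2.32% lower. Of the 7 higher genes of 2A, 5 belong to the block with the cold-regulated genes and 1 is the lipid transfer gene. Of the 7 of 2D, 2 belong to that block, 1 is the lipid transfer gene and 1, TraesCS2D02G461900, is described as PIF3. With uninformative descriptions included, 6 of the 15 higher genes had a copy on 2A, of which 5 were tested and 0 called higher. On 2D 8 had a copy, of which 6 were tested and 3 called higher. Nothing particular to 2B is claimed from these counts, and the difference between the chromosomes was not tested.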

How the data were processed

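Grain RNA was sequenced in 6 libraries. Per the labels' protocols, Trizol was used for RNA and Illumina protocols for the libraries. HISAT2, StringTie and cutadapt are named in the submitters' processing notes. The strand setting is not given in the sources used here, so a gene and an antisense partner cannot be told apart. The table, per the file headers, gives whole-number counts and the authors' FPKM for each gene and library. Values with a count of 0 (100%) were written as 0.0001 FPKM in the deposited table and were read as 0. A further 12 columns from 6 libraries match no labelled sample and were not used.

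Counts of genes averaging 0.5 FPKM or more over the libraries were fitted with edgeR 4.0.16 (R 4.3.3; TMM scaling, quasi-likelihood test, no block); p-values were adjusted over all 48492 tested genes. The SE of a log2 difference is its size over the square root of F. Alternatives used DESeq2 1.42.0, limma 3.58.1 on log2(FPKM + 1) and log2(FPKM + 0.1), other scalings, filters and thresholds, a replicate block and leaving out each library. The labels do not say whether libraries came from separate plants, so the spread may be technical. Only the main edgeR fit was tested on simulated counts.

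The region, the gene lists and the classes were chosen with earlier results of these data known. Named genes were the 12 higher and up to 6 lower calls with the highest mean FPKM in the group where they are high, the 4 members with the highest mean over the 6 libraries, the most abundant call of each class, the edge genes, the first and last higher call and collinear copies; others were chosen after their values were seen. The table's identifiers matched 0 entries of the supplied reference gene table.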

Additional observations from a re-analysis of the deposited data

How the results depend on the processing

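Of the members, 15 were called higher and 1 lower. DESeq2 called 23 and 6 (9.41% and 6.20% of all tested genes), and an adjusted p under 0.01 left 3 higher. Leaving out each library gave 4 to 18 higher and 1 to 4 lower, the 4 lower without purple replicate 3. Of all tested genes, those fits called 0.474% to 5.22% higher and 0.735% to 5.02% lower. The 3 calls kept without each library were TraesCS2B02G482100, TraesCS2B02G482600 and TraesCS2B02G485700. Without a filter 20 were called higher (2.29% of all genes tested that way), the 15 and 5 more: BLT14.1, 3 disease resistance genes and a wall-associated kinase (TraesCS2B02G489700). Lower calls were 3 with total count scaling, 2 without a filter, 2 and 5 with limma at pseudocounts of 1 and 0.1. In the same order, 2.85%, 1.69%, 3.47% and 4.14% of all tested genes were called lower. Copies on 2A called higher, 0 as reported, were 2 with DESeq2, 2 and 1 with limma, 0 to 2 with a library left out (2 without white replicate 1) and 1 with uninformative descriptions included. Copies on 2A called lower, 1 as reported, were 2 with total count scaling, 3 with DESeq2, 2 and 3 with limma, 2 with no fold threshold and 3 with uninformative descriptions. Copies on 2D called higher, 0 as reported, were 1 without a filter, 2 with DESeq2, 2 and 1 with limma, 0 to 2 with a library left out, 1 with all genes of the same description and 5 with uninformative descriptions. Copies on 2D called lower were 0 at an adjusted p under 0.01, and 0 to 1 with a library left out (0 without purple replicate 1, purple replicate 2, white replicate 2 or white replicate 3). Members with the purple libraries above the white ones, 27 as reported, were 41 without a filter and 25 to 31 with a library left out; those below, 16 as reported, were 16 to 25, the 25 without purple replicate 3. Leaving out each library, the log2 difference of TraesCS2B02G505600 ran from -0.145 to 0.0774 and that of TraesCS2A02G467100 from -0.13 to 0.624; in both the sign turned without purple replicate 1. In all of these the cause was not tested.

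With the replicate number as a block, 11 members were called higher, all 11 among the 15, and 2 lower. In that fit 3.2% of all tested genes were called higher and 2.05% lower. Libraries of the same number deviated together at correlations of 0.107, -0.000863 and 0.213. Pairs of different number ran from -0.204 to 0.0862. Whether libraries of the same number share more than that number was not tested. Of 318 comparisons over 23 named genes, 271 kept their direction and side of the threshold, 38 lost the call, 7 gained it and 2 turned sign.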
